A study of Mus musculus with 12 samples.

Results

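Beige and white adipocytes grown from the same kind of wild-type (WT) mouse preadipocyte were compared by RNA sequencing. The comparison rests on 4 of the 12 libraries of the study, 2 of WT beige and 2 of WT white cultures, chosen by their sample titles. Both cultures came from preadipocytes of the inguinal fat depot, a white depot under the skin, of WT C57BL/6 mice. The beige cultures were differentiated with rosiglitazone, a synthetic agonist of the nuclear receptor PPARγ, and the white cultures without it. Beige and white cultures of the same strain labelled as lacking ATF7, a transcription factor of the ATF2 family (KO-labelled), lent their spread between replicates to the test and were set beside the WT values at the end. Nothing in the labels says whether replicates came from separate mice, so p-values measure only the spread between these libraries, which may be technical. The dose and duration of rosiglitazone, the number and age of the mice and the rest of the medium stand among the facts not given in the sources used here. These are cultures and not fat pads, so the cold, nerves and blood supply of the animal are absent.

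Brown and beige adipocytes burn fatty acids in dense mitochondria, and uncoupling protein 1 lets protons return across the inner mitochondrial membrane so that the energy leaves as heat. Beige cells arise within white depots, and agonists of PPARγ are a common way to obtain them in culture. PPARγ pairs with a retinoid X receptor and drives the genes of fatty acid uptake, storage and breakdown that define an adipocyte, while PPARα and the PGC-1 coactivators direct mitochondrial oxidation.

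Expression was given as FPKM, fragments mapped to a gene entry scaled by its transcript length and by the size of the library. Differences are beige minus white on the log2(FPKM + 1) scale, where a pseudocount of 1 FPKM was added, and they understate the change of genes near 0. A number that stands alone after a gene is this difference. An entry was tested if it had at least 1 FPKM in 2 or more of the 4 WT libraries, which left 10845 of 24888 entries. A gene was called higher or lower at an adjusted p under 0.05 in limma, with Benjamini-Hochberg adjustment over all entries tested. The files give no read depth. Whole-read steps in the low values put the depth of both beige libraries at 1.16 and the second white library at 0.88 times that of the first white library. Across entries, log2 values correlated at 0.987 between the beige replicates, 0.978 between the white replicates and 0.849 to 0.853 between cultures. Small RNA genes took 23.9% to 24.5% of the summed FPKM in beige and 28.7% to 29.7% in white.

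Most expressed genes differed between the cultures by this test: 5881 entries (54.2%) were called, 2413 (22.2%) higher and 3468 (32.0%) lower in beige. The median difference over all entries tested was −0.09. After median centring the same fit called 3075 higher and 2842 lower, and with small RNA genes left out and the rest rescaled it called 1878 higher and 4761 lower, so the balance of the 2 directions depends on the scaling. Of the 5881 calls, 5255 (89.4%) were also called in the same direction under median centring and 5049 (85.9%) under quantile normalization, where 19 entries turned without a call. With 1 WT library left out, 77.1% to 84.3% were called again in the same direction. Differences above 1 were called for 759 entries in the direction of beige and 1078 in that of white, and differences above 3 for 35 and 46. With so many calls, the count and median of a list are to be read beside 22.2%, 32.0% and −0.09. The lists and their members were chosen with earlier results of these data known. Their distance from these values therefore describes the members and is not a test. The libraries of the cultures did not overlap for 77.7% of entries tested. A gene made in 1 culture alone passes the filter because of that culture, so the counts below cover the members that passed and describe them. Some genes, such as Cpt1b and Cfd, stand on more than 1 list, so the lists are not independent of each other.

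**Figure D1:**
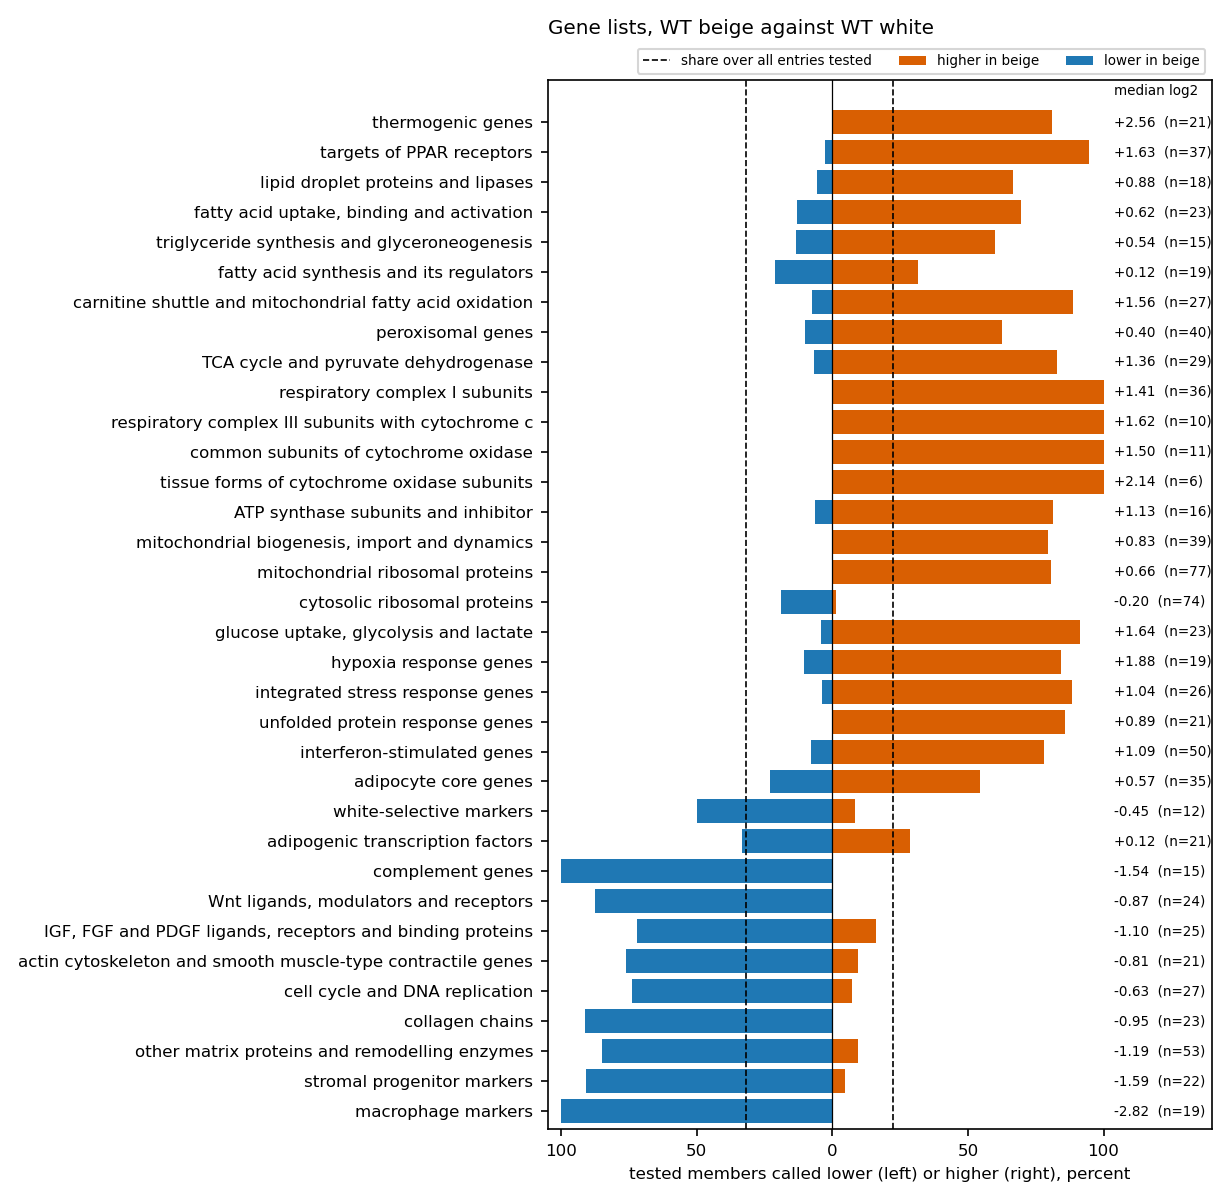
Share of the tested members of 34 gene lists that were called higher (right, orange) or lower (left, blue) in WT beige against WT white, in percent, with the median log2 difference and the number tested at the right. The dashed lines mark the shares over all entries tested, 22.2% and 32.0%; oxidative, thermogenic and stress lists lie to the right of them and matrix, stromal, complement and macrophage lists to the left.

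Both cultures carried the genes that define fat cells. The marker of mature adipocytes Adipoq, which encodes adiponectin, stood at 518 and 506 FPKM in the beige libraries, compared with 326 and 353 FPKM in the white, and the droplet coat protein gene Plin1 at 295 and 291 FPKM in beige libraries and 169 and 165 FPKM in white libraries. Of the adipocyte core genes, 19 of 35 tested members were higher and 8 lower (median 0.57); the median was 0.24 under quantile normalization. Markers of macrophages and of stromal progenitors were lower with few exceptions. All 19 tested macrophage markers were lower in beige (median −2.82), and their summed level was 40.2 and 39.2 FPKM in the beige libraries and 652 and 580.0 FPKM in the white ones. Defining members stood near 0 in beige: Csf1r, which encodes the CSF-1 receptor of macrophages, at 0.648 and 0.482 FPKM against 13.5 and 11.1 FPKM in white, and Itgam, an integrin of myeloid cells, at 0.219 and 0.159 FPKM against 5.13 and 3.54 FPKM. Of the stromal progenitor markers, 1 of 22 tested members was higher and 20 lower (median −1.59), with summed levels of 552 and 526 FPKM with rosiglitazone and 1481 and 1583 FPKM without it. Pdgfra, the platelet-derived growth factor receptor of fat progenitors, stood at 8.21 and 7.94 FPKM in the beige libraries, compared with 60.6 and 66.9 FPKM in the white (log2 difference −2.83, SE 0.13, adjusted p = 6.17e-07). In bulk RNA, fewer cells of a type and less RNA per cell cannot be told apart. The macrophage and stromal markers differed between the same libraries in which every group of genes below was compared. Their part in those results was not tested. Markers of lymphoid cells, neutrophils and mast cells, epithelium, mesothelium, Schwann cells and erythroid cells had 0 members that passed the filter, and of 6 endothelial markers 1 passed, Tek, at 0.481 and 0.589 FPKM in beige libraries and 1.92 and 2.14 FPKM in white libraries. Of the pericyte and smooth muscle markers 2 passed, 1 higher and 1 lower, with summed levels of 10.9 and 11.6 FPKM with rosiglitazone and 6.59 and 7.65 FPKM without it. The 1 skeletal muscle marker that passed was higher, and of 2 cartilage and bone markers that passed 1 was lower and the other had no call.

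Most genes of the thermogenic programme were higher in beige. Ucp1, whose protein uncouples respiration from ATP synthesis, read 19.1 and 17.2 FPKM in beige, and both white libraries listed it at 0. Cidea, a droplet protein that beige and brown fat make far more than white fat, read 56.1 and 52.3 FPKM in the beige libraries, compared with 0.105 and 0 FPKM in the white (log2 difference 5.71, SE 0.13, adjusted p = 2.25e-08). The libraries of the 2 cultures lay far apart for each of them, and the replicates lay close together. Elovl3, an elongase that brown fat switches on in the cold, read 62.7 and 73.7 FPKM in beige libraries and 0.243 and 0.0932 FPKM in white libraries (log2 difference 5.89, SE 0.13, adjusted p = 2.25e-08). Chchd10, a protein of the mitochondrial intermembrane space, reached 568 and 573 FPKM with rosiglitazone and 18.9 and 18.4 FPKM without it (log2 difference 4.86, SE 0.10, adjusted p = 1.26e-08). Of 26 genes on the thermogenic list, 21 passed the filter, and 17 of these were higher and 0 lower (median 2.56).

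The exceptions on that list were as plain. Adrb3, the β3-adrenergic receptor through which noradrenaline starts thermogenesis, read 30.7 and 34.3 FPKM in the beige libraries, compared with 30.6 and 42.9 FPKM in the white, and the groups overlapped (log2 difference −0.15, SE 0.16, adjusted p = 0.449). Ucp2, a relative of Ucp1 that is widely expressed, read 30.5 and 29.4 FPKM in beige libraries and 27.3 and 18.9 FPKM in white libraries (log2 difference 0.38, SE 0.15, adjusted p = 0.0562). Dio2, the deiodinase that activates thyroid hormone in cold-stimulated fat, read 0.0691 and 0.0726 FPKM with rosiglitazone and 0.0250 and 0.0752 FPKM without it and was not tested. Otop1, a proton channel of brown fat, and Kcnk3, a potassium channel, rose by 2.74 and 2.60. Fgf21, a hormone that fat can secrete, went from 0.319 and 0.478 FPKM without rosiglitazone to 6.55 and 8.02 FPKM with it (difference 2.56).

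Genes for the other known routes of heat production divided. Calcium cycling uses pumps such as Atp2a3, which read 5.60 and 6.44 FPKM in the beige libraries, compared with 0.438 and 0.353 FPKM in the white (difference 2.33), and Atp2a2, which rose by 0.71. The mitochondrial creatine kinases Ckmt1 and Ckmt2 were listed at 0 in all 4 libraries. The creatine genes Gamt, Gatm and Ckb, for synthesis of creatine and its cytosolic kinase, were lower in beige (−1.89, −1.08 and −0.99). Of the creatine and calcium list, 4 of 7 tested members were higher and 3 lower (median 0.43); the median was 0.01 with no filter on low values.

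Regulators of the programme moved less than its targets, by their medians. Ppargc1a, the PGC-1α coactivator that drives mitochondrial biogenesis, read 6.07 and 6.38 FPKM in beige libraries and 1.17 and 1.38 FPKM in white libraries (difference 1.67), and its relative Ppargc1b rose by 2.08. Ppara, the fatty acid receptor of oxidative tissues, went from 0.850 and 0.972 FPKM in the white libraries to 23.9 and 23.4 FPKM in the beige (log2 difference 3.69, SE 0.10, adjusted p = 9.77e-08). It was the largest difference on the list of regulators. Esrra, a nuclear receptor for mitochondrial genes, rose by 1.52. Prdm16 and Ebf2, the factors that mark commitment to brown and beige fat, rose by less: Prdm16 read 1.05 and 1.28 FPKM with rosiglitazone and 0.529 and 0.558 FPKM without it (difference 0.48), and Ebf2 7.54 and 8.13 FPKM against 3.87 and 3.36 FPKM (difference 0.94). Of the regulators, 15 of 31 tested members were higher and 5 lower (median 0.24). The 5 became 3 after median centring, quantile normalization, with at least 5 FPKM or without either WT beige replicate or WT white replicate 1, and 9 with small RNA genes left out. Atf7, which the KO-labelled mice are said to lack, read 7.80 and 7.83 FPKM in the beige libraries, compared with 9.10 and 7.10 FPKM in the white, with no call (difference −0.04).

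Markers proposed to tell beige, brown and white fat apart gave no uniform picture. Of the beige-selective markers, Tmem26, Tbx1 and Cited1 did not pass the filter, and Tnfrsf9, which encodes the receptor CD137, read 1.09 and 1.01 FPKM in beige libraries and 0.0830 and 0 FPKM in white libraries (difference 0.98). Zic1, the marker of classical brown fat, read 0 and 0.0168 FPKM with rosiglitazone and 0.0934 and 0 FPKM without it. Of these markers, 2 of 5 tested members were higher and 2 lower (median 0.05) for beige and 1 of 4 tested members was higher and 2 lower (median −0.31) for brown fat, and the beige median turned to −0.37 with small RNA genes left out. On the white side, Lep, the gene of the satiety hormone leptin, read 0.0757 and 0.0191 FPKM in the beige libraries, compared with 7.52 and 8.26 FPKM in the white (log2 difference −3.09, SE 0.10, adjusted p = 1.59e-07). Mest, an imprinted gene tied to fat expansion, was listed at 0 in both beige libraries and read 3.78 and 4.40 FPKM in white. The homeobox gene Hoxc8 read 4.26 and 4.49 FPKM in beige libraries and 7.09 and 8.80 FPKM in white libraries (difference −0.73), while Hoxc10 was not called (0.06). Of the white-selective markers, 1 of 12 tested members was higher and 6 lower (median −0.45).

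**Figure D2:**
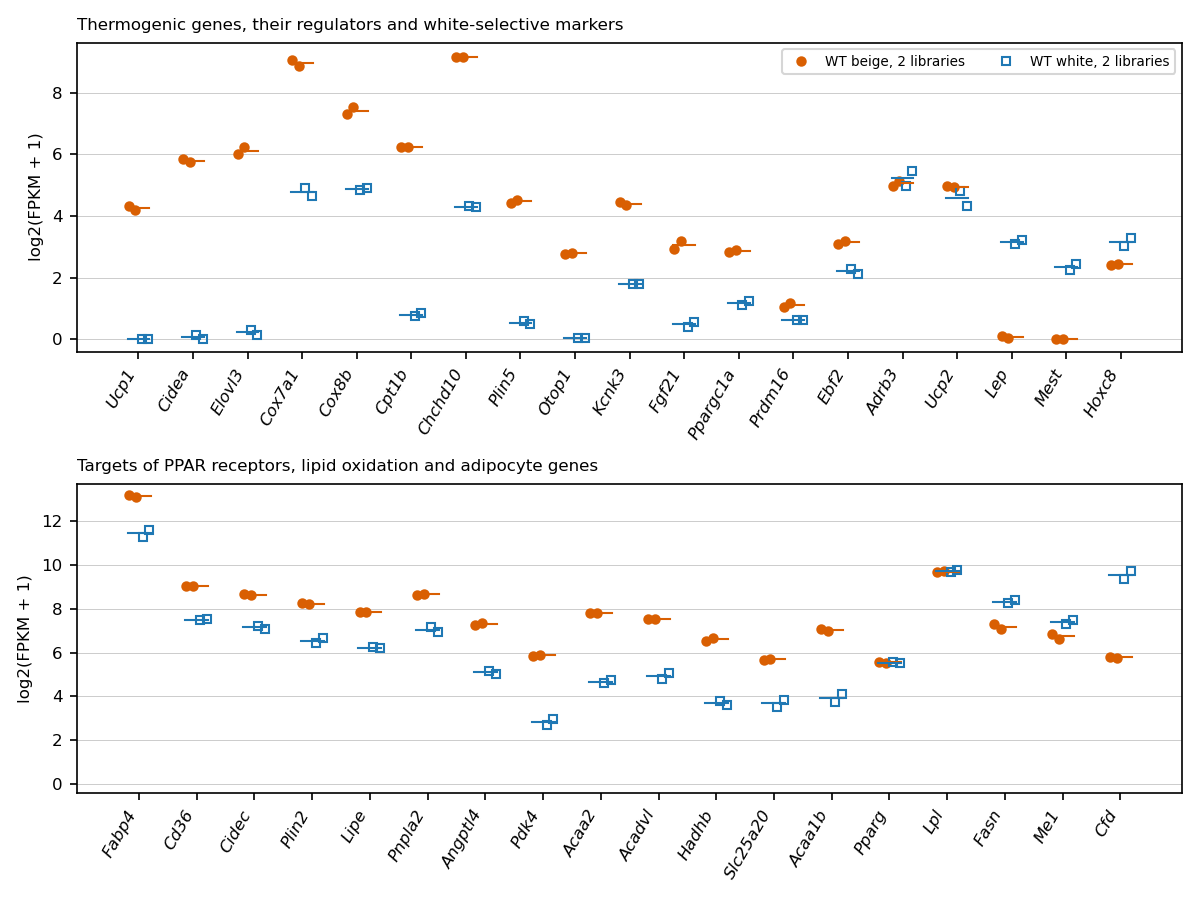
Level of 37 genes in each library, as log2(FPKM + 1), with WT beige in filled orange circles, WT white in open blue squares and each culture's mean as a short line. In the upper panel Ucp1 stands at 0 in both white libraries and Adrb3 overlaps between cultures; in the lower panel the oxidative and storage genes are higher in beige, Pparg and Lpl overlap, and Fasn, Me1 and Cfd are higher in white.

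The message of the receptor that rosiglitazone binds showed no detectable difference, while most listed targets of PPAR receptors were higher. The list does not separate targets of PPARγ from those of PPARα, and Ppara itself rose by 3.69. The part of each receptor was not tested. Pparg read 47.02 and 45.1 FPKM with rosiglitazone and 45.9 and 45.04 FPKM without it, a difference within the spread of the replicates (log2 difference 0.02, SE 0.09, adjusted p = 0.883). Of 40 known targets of PPAR receptors, 37 passed the filter, 35 of these were higher and 1 lower (median 1.63). The targets with the greatest differences were Cpt1b and Plin5, described with the genes of oxidation and droplets. Pdk4, the kinase that shuts pyruvate out of the TCA cycle, went from 5.54 and 6.79 FPKM without rosiglitazone to 57.3 and 59.2 FPKM with it (log2 difference 3.05, SE 0.11, adjusted p = 2.21e-07). Angptl4, a secreted inhibitor of lipoprotein lipase, rose by 2.20. Me1, the malic enzyme that supplies NADPH for fat synthesis, was the member that fell, from 158 and 179 FPKM in the white libraries to 115 and 98.8 FPKM in the beige (−0.65). Lpl, the lipase that frees fatty acids from lipoproteins, was the member with no call, at 805 and 840.4 FPKM in the beige libraries, compared with 824 and 879 FPKM in the white.

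Other adipogenic factors moved in both directions. Cebpb, an early factor of fat cell formation that also responds to cAMP, read 133 and 116 FPKM in beige libraries and 45.3 and 48.9 FPKM in white libraries (log2 difference 1.38, SE 0.14, adjusted p = 3.57e-05). Cebpa, its partner in the mature cell, was not called (difference 0.27). Rxra, the usual partner of PPARγ, read 6.76 and 6.83 FPKM with rosiglitazone and 15.8 and 13.7 FPKM without it (difference −1.01), and its relative Rxrg read 4.16 and 5.40 FPKM and 0.582 and 1.14 FPKM (difference 1.65). Srebf1 and Nr1h3, which encode the lipogenic factors SREBP-1 and LXRα, rose by 0.75 and 0.58. Hes1, a target of Notch, fell by 1.66. Of the adipogenic transcription factors, 6 of 21 tested members were higher and 7 lower (median 0.12); after median centring 10 were higher, and under quantile normalization and with small RNA genes left out their median fell to −0.12 and −0.01.

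Fatty acid handling genes rose at entry, binding and release. Fabp4, the main fatty acid carrier of fat cells and the most abundant entry in beige outside small RNA genes, read 9181 and 8602 FPKM in the beige libraries, compared with 2497 and 3055 FPKM in the white (log2 difference 1.69, SE 0.17, adjusted p = 3.73e-05). Fabp3, the carrier of heart and brown fat, went from 0.418 and 0.862 FPKM without rosiglitazone to 16.5 and 17.99 FPKM with it (difference 3.49). Cd36, the fatty acid receptor of the surface, read 530.0 and 529.5 FPKM in beige libraries and 177 and 185 FPKM in white libraries (difference 1.55), and Vldlr, a lipoprotein receptor, rose by 1.95. The replicates of each were close, and no white library reached a beige one. Of the genes of uptake, binding and activation, 16 of 23 tested members were higher and 3 lower (median 0.62).

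Droplet proteins and the lipases that work on them were mostly higher. Plin5, which ties droplets to mitochondria, read 20.5 and 21.9 FPKM with rosiglitazone and 0.504 and 0.406 FPKM without it (log2 difference 3.93, SE 0.14, adjusted p = 1.88e-07). Plin2 and Cidec rose by 1.70 and 1.49, and Plin3 was not called (−0.18). The lipases that open the store rose together: Pnpla2, which takes the first fatty acid off, read 398 and 405 FPKM in the beige libraries, compared with 141 and 123 FPKM in the white, and Lipe, which takes the next, 231 and 229 FPKM and 74.3 and 72.6 FPKM (differences 1.60 and 1.63). G0s2, an inhibitor of the first lipase, rose as well, by 1.85. Of the droplet genes, 12 of 18 tested members were higher and 1 lower (median 0.88).

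Genes that supply glycerol for triglycerides rose, and those of the acylation steps divided. Pck1, whose enzyme turns out the precursor of glycerol phosphate in fat, read 33.2 and 32.2 FPKM in beige libraries and 4.30 and 5.33 FPKM in white libraries (difference 2.54). Gyk, the glycerol kinase, and Gpd1, the glycerol phosphate dehydrogenase, rose by 2.45 and 1.88. Dgat2, an enzyme of the last step, fell from 273 and 326 FPKM in the white libraries to 45.3 and 43.9 FPKM in the beige (log2 difference −2.71, SE 0.14, adjusted p = 1.19e-06), while Dgat1, which does the same step, rose from 36.7 and 27.5 FPKM to 65.9 and 63.7 FPKM (difference 1.0). Gpam, of the first acylation, fell by 0.80. Of the list, 9 of 15 tested members were higher and 2 lower (median 0.54).

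Fatty acid synthesis genes did not follow. Fasn, the fatty acid synthase, read 155 and 135 FPKM with rosiglitazone and 304 and 336 FPKM without it (log2 difference −1.14, SE 0.12, adjusted p = 4.02e-05). Acaca, the carboxylase that feeds it, was not called (−0.18), whereas Acacb, whose product restrains fatty acid entry into mitochondria, went from 4.84 and 4.82 FPKM without rosiglitazone to 24.5 and 24.2 FPKM with it (difference 2.12). Of this list, 6 of 19 tested members were higher and 4 lower (median 0.12); the median fell to −0.09 under quantile normalization and −0.04 with small RNA genes left out. The desaturases Scd1, Scd2 and Scd3 were higher, by 0.78, 1.03 and 2.25, though close relatives of this family may share reads, and Scd1 was not called under quantile normalization or with no filter on low values. The elongase Elovl6, of common long chains, fell by 1.63, against the rise of 5.89 in Elovl3. Of the desaturases and elongases, 7 of 16 tested members were higher and 6 lower (median −0.07).

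Mitochondrial fatty acid oxidation genes were higher at nearly every step. Cpt1b, the muscle-type gate of the shuttle, read 73.8 and 74.4 FPKM in the beige libraries, compared with 0.674 and 0.790 FPKM in the white, a 101-fold ratio of means (log2 difference 5.44, SE 0.13, adjusted p = 2.26e-08). Cpt1a, the liver-type gate, went the other way, from 11.3 and 11.3 FPKM in the white libraries to 4.41 and 5.01 FPKM in the beige (difference −1.11). In white cultures Cpt1a exceeded Cpt1b, and in beige cultures Cpt1b exceeded Cpt1a, in FPKM, a level per length of transcript. The carrier Slc25a20, the long-chain dehydrogenase Acadvl, the trifunctional subunits Hadha and Hadhb and the thiolase Acaa2 rose by 2.00, 2.59, 2.35, 2.89 and 3.12. Of the 27 tested members, 24 were higher and 2 lower (median 1.56); the second that fell was Cpt1c, a form of the brain (−0.96).

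Genes of peroxisomes, which shorten very long chains, were also higher more often than lower. Acaa1b, a peroxisomal thiolase, read 133 and 126 FPKM in beige libraries and 12.6 and 16.5 FPKM in white libraries (log2 difference 3.08, SE 0.13, adjusted p = 4.95e-07), and Phyh, for branched chains, rose by 1.80. Of the peroxisomal genes, 25 of 40 tested members were higher and 4 lower (median 0.40). Among the assembly genes, Pex14 and Pex11a rose by 1.35 and 0.63.

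The tested respiratory chain genes of complexes I to IV were higher throughout. All 36 tested nuclear-encoded subunits of complex I were higher in beige (median 1.41), as were all 4 of complex II, 10 of complex III with cytochrome c, 11 common subunits of cytochrome oxidase and 6 tissue-specific ones. The 0 entries on the mitochondrial chromosome leave the subunits encoded there unmeasured. The tissue forms of the oxidase had a median of 2.14, against 1.5 for the common subunits. Cox7a1, the heart and muscle form, read 535 and 460.2 FPKM with rosiglitazone and 29.1 and 24.03 FPKM without it (log2 difference 4.18, SE 0.21, adjusted p = 9.66e-07), and Cox8b 156 and 183 FPKM against 27.9 and 29.1 FPKM (difference 2.53). Cox6a2, another muscle form, rose by 3.01. Of the ATP synthase genes, 13 of 16 tested members were higher and 1 lower (median 1.13). The member that fell was Atpif1, the inhibitor of the enzyme, from 15.1 and 18.2 FPKM without rosiglitazone to 10.3 and 10.1 FPKM with it (difference −0.65), while the catalytic subunit Atp5b read 966 and 957 FPKM against 334 and 387 FPKM (difference 1.42).

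Genes that build mitochondria rose by a smaller median than those of the chain. Of the genes of biogenesis, import and dynamics, 31 of 39 tested members were higher and 0 lower (median 0.83). Tfam, the packaging protein of mitochondrial DNA, read 5.53 and 4.75 FPKM in the beige libraries, compared with 3.48 and 3.41 FPKM in the white (difference 0.46), and the protease Lonp1 and the chaperone Hspa9 rose by 1.92 and 1.85. Mitochondrial ribosomal proteins rose for 62 of 77 and fell for 0 (median 0.66). Cytosolic ribosomal proteins did not: 1 of 74 tested members was higher and 14 lower (median −0.20). The latter count moved with the processing: 40 were lower under quantile normalization, 38 with small RNA genes left out, 29 without WT white replicate 1, and 6, 8 and 8 without WT beige replicate 1, WT beige replicate 2 and WT white replicate 2.

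Most enzymes of the TCA cycle were higher. Cs, the citrate synthase, read 337 and 343 FPKM in beige libraries and 122 and 143 FPKM in white libraries (log2 difference 1.36, SE 0.13, adjusted p = 3.05e-05). Genes that open the entry of pyruvate and genes that close it rose. The dehydrogenase subunit Pdhb and the pyruvate carrier Mpc1 rose by 1.62 and 1.38, and so did the inhibitory kinases Pdk1, Pdk2 and Pdk4, by 1.89, 2.26 and 3.05, while their relative Pdk3 fell by 0.51. Pcx, the pyruvate carboxylase, was not called (−0.00) and was called lower under quantile normalization. Of the 29 tested, 24 were higher and 2 lower. Among the mitochondrial carriers, 19 of 33 tested members were higher and 6 lower (median 0.59), and the orphan carrier Slc25a34 went from 0.462 and 0.392 FPKM in the white libraries to 14.8 and 15.97 FPKM in the beige (difference 3.52). Alas1, which limits haem synthesis, read 103 and 89.9 FPKM with rosiglitazone and 23.7 and 24.99 FPKM without it (difference 1.94), and none of the later enzymes of the pathway was called, as for Fech (−0.12).

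Branched-chain amino acids are a further fuel of thermogenic fat. The dehydrogenase complex that commits them rose, with Bckdha, Bckdhb and Dbt at 1.24, 1.64 and 1.31. Its inhibitory kinase Bckdk rose by 1.03. The dehydrogenases Ivd and Acadsb of the next step were lower (−0.84 and −0.91). Of the list, 14 of 25 tested members were higher and 4 lower (median 0.44).

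Genes of glucose entry, glycolysis and lactate export were higher. Slc2a1, the transporter that works without insulin, went from 8.12 and 6.81 FPKM without rosiglitazone to 125 and 89.2 FPKM with it (log2 difference 3.66, SE 0.37, adjusted p = 3.8e-05). Slc2a4, the insulin-regulated transporter, read 48.5 and 45.4 FPKM in the beige libraries, compared with 15.4 and 13.4 FPKM in the white (difference 1.64). The beige replicates of Slc2a1 differed by more than those of Slc2a4, and neither reached the white range. Aldoa, the aldolase, was among the most abundant entries outside small RNA genes in beige at 1669 and 1512 FPKM, against 554 and 541 FPKM in white (difference 1.53). Hexokinase 2, from Hk2, phosphofructokinase, from Pfkl, and the lactate dehydrogenase Ldha rose by 2.09, 2.48 and 1.51. The lactate carriers Slc16a1 and Slc16a3 rose by 2.23 and 2.91. Of the 23 tested, 21 were higher and 1 lower (median 1.64); glycolytic genes with many pseudogene copies, such as Gapdh, may share reads.

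Genes of the hypoxia response moved in the same direction. Egln3, an oxygen sensor that low oxygen induces, went from 2.31 and 1.84 FPKM in the white libraries to 85.5 and 68.99 FPKM in the beige (log2 difference 4.67, SE 0.33, adjusted p = 5.42e-06). Bnip3, a mitophagy receptor, read 236 and 207 FPKM in beige libraries and 33.1 and 29.2 FPKM in white libraries (difference 2.79), and Vegfa, the growth factor of vessels, 140.3 and 129.7 FPKM against 35.9 and 33.6 FPKM (difference 1.93). The groups did not overlap for any of these. Hif1a, the oxygen-regulated factor itself, which is controlled mainly as a protein, was lower in beige (−0.65), and Epas1, which encodes its relative HIF-2α, was not called (0.13). Adm, the vasodilator adrenomedullin and usually a hypoxia gene, was lower too (−1.0). Of the list, 16 of 19 tested members were higher and 2 lower (median 1.88). Beige replicate 1 was above beige replicate 2 for 16 of the 19 and for 19 of the 23 genes of glucose use. Some other lists leaned the same way, such as stromal progenitor markers with 17 of 22, and cytosolic ribosomal proteins split 37 to 37. The share over all entries was not counted.

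The adrenergic pathway showed shifts among receptors and enzymes and no common direction. Of 38 tested members, 16 were higher and 14 lower (median −0.12), so neither direction prevailed; the median turned to 0.50 with at least 5 FPKM, where 7 were lower, and to 0.06 under quantile normalization. Adrb1, the β1 receptor, read 1.95 and 2.09 FPKM with rosiglitazone and 0.147 and 0.255 FPKM without it (difference 1.33). Prkar2b, the regulatory subunit of protein kinase A in fat, and Pde3b, the phosphodiesterase through which insulin lowers cAMP, rose by 1.33 and 1.88. Ffar4, a receptor for long-chain fatty acids, went from 2.79 and 1.29 FPKM without rosiglitazone to 44.02 and 36.6 FPKM with it (log2 difference 3.8, SE 0.36, adjusted p = 2.66e-05). Adora1, an adenosine receptor that restrains lipolysis, rose by 1.48. Of the insulin signalling genes, 13 of 25 tested members were higher and 8 lower (median 0.29); without WT beige replicate 2, 4 were lower, and without WT white replicate 2, 5 were. Pik3r1, the regulatory subunit of PI3-kinase, fell from 46.3 and 46.4 FPKM in the white libraries to 15.96 and 16.8 FPKM in the beige (difference −1.45), and Irs2 rose by 1.13 where Irs1 was lower (−0.68).

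Some related genes divided in this way, and how many moved together was not counted. In the pairs plotted here, picked after their values were seen, the first gene was called higher in beige and the second was called lower or, for Acaca, had no call. Elovl6 read 2.003 and 2.36 FPKM in the beige libraries, compared with 8.18 and 9.52 FPKM in the white, so Elovl3 exceeded it in beige and it exceeded Elovl3 in white. The order in FPKM reversed in the same way for Dgat1 and Dgat2, while Rxra exceeded Rxrg in both cultures. The thyroid hormone receptor genes Thrb and Thra differed by 0.40 and −1.13, and Thrb lost its call without WT beige replicate 1 or WT white replicate 2. The phosphodiesterases Pde3b and Pde3a differed by 1.88 and −1.21.

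**Figure D3:**
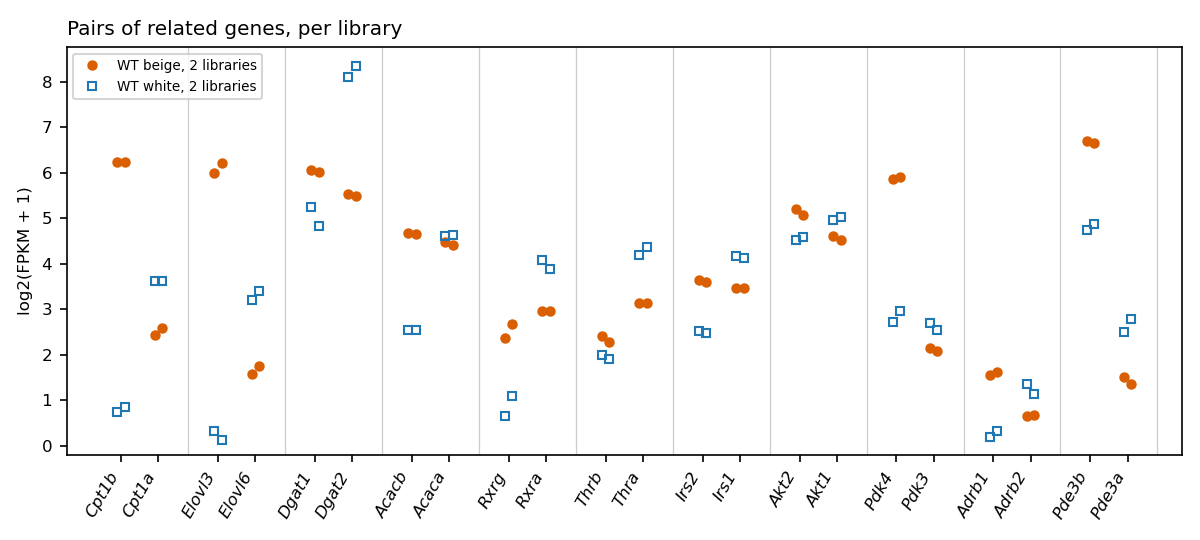
Level of 11 pairs of related genes in each library, as log2(FPKM + 1), with WT beige in filled orange circles and WT white in open blue squares. In each pair the left gene is higher in beige and the right gene is higher in white, except Acaca, which had no call; the pairs were picked for this.

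Secreted factors differed in both directions. Cfd, the fat cell protease adipsin of the alternative complement pathway, fell from 647 and 841 FPKM without rosiglitazone to 54.8 and 53.2 FPKM with it (log2 difference −3.75, SE 0.17, adjusted p = 5.06e-07). Retn, the gene of resistin, read 218 and 206 FPKM in beige libraries and 449.9 and 597 FPKM in white libraries (difference −1.29). Rbp4, the retinol carrier, was not called (0.13). Rarres2, which encodes chemerin, and Nrg4, a growth factor of thermogenic fat, rose by 1.64 and 1.99, although WT white replicate 1 listed Nrg4 at 0 and replicate 2 read 1.22 FPKM. Gdf15, a stress hormone that curbs appetite, rose by 2.37. Orm1, an acute-phase protein, fell from 51.8 and 51.9 FPKM to 5.15 and 4.60 FPKM (−3.17), and Apoe, of lipid transport, from 342 and 319 FPKM to 74.5 and 75.9 FPKM (−2.12). Of the adipokines and other secreted factors, 9 of 29 tested members were higher and 13 lower (median −0.35).

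All 15 tested complement genes were lower in beige (median −1.54), and the groups overlapped for none. C3, the protein at the centre of the cascade, read 20.1 and 18.7 FPKM with rosiglitazone and 135 and 120.4 FPKM without it (log2 difference −2.66, SE 0.12, adjusted p = 4.95e-07). Serping1, which restrains the cascade, was lower along with the components (−1.54). Some members, such as the receptor C5ar1 (−2.43), are made by macrophages, whose markers summed to 40.2 and 39.2 FPKM in the beige libraries, compared with 652 and 580.0 FPKM in the white. Car3, a carbonic anhydrase that white fat makes in great amount, fell from 1391 and 1520 FPKM in the white libraries to 419 and 301 FPKM in the beige (log2 difference −2.03, SE 0.17, adjusted p = 1.29e-05). The 3 retinaldehyde dehydrogenases that make retinoic acid fell, Aldh1a1 from 25.7 and 27.9 FPKM to 3.40 and 4.33 FPKM, with Aldh1a2 and Aldh1a3 at −2.44 and −2.02. The receptor gene Rara fell by 1.33. Retsat, a retinol saturase under PPARγ, rose by 1.75. Of the retinoid genes, 2 of 13 tested members were higher and 7 lower (median −0.41), and with at least 5 FPKM 3 were lower.

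Stress pathway genes of the endoplasmic reticulum and of translation were mostly higher. Ddit3, the factor CHOP, read 118 and 116 FPKM in beige libraries and 17.4 and 28.9 FPKM in white libraries (log2 difference 2.33, SE 0.19, adjusted p = 1.1e-05), and Atf4, the hub of the integrated stress response, 133 and 133 FPKM against 47.2 and 64.8 FPKM (difference 1.25). Serine and folate enzymes of the mitochondrion that ATF4 drives, Shmt2 and Mthfd2, rose by 1.75 and 1.61. Of this list, 23 of 26 tested members were higher and 1 lower (median 1.04). Of the unfolded protein response, 18 of 21 tested members were higher and 0 lower (median 0.89). The chaperone Hspa5, or BiP, read 706 and 705 FPKM with rosiglitazone and 225 and 329.8 FPKM without it (difference 1.37). White replicate 2 was above white replicate 1 for 19 of the 21 genes, as it was for 31 of 36 complex I subunits. Both white libraries lay below the beige libraries for 19 of the 21. Ero1l, an oxidase of the reticulum that hypoxia also induces, went from 15.4 and 20.6 FPKM to 255 and 243 FPKM (difference 3.73).

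Antioxidant genes went both ways. The mitochondrial enzymes Sod2 and Prdx3 rose by 1.56 and 1.13, and the secreted Sod3 and Gpx3 were lower (−0.97 and −1.57). Hmox1, the haem oxygenase, read 235 and 179.9 FPKM in the beige libraries, compared with 61.95 and 67.2 FPKM in the white (difference 1.66), whereas Nqo1, the usual reporter of NRF2, was lower (−0.54), a call lost under quantile normalization and without WT beige replicate 1. Mt2, a metallothionein, was among the 10 most abundant entries outside small RNA genes in beige at 826 and 755 FPKM, against 93.3 and 57.1 FPKM in white (difference 3.42). Of the list, 12 of 22 tested members were higher and 7 lower (median 0.34). Of the cholesterol genes, 5 of 28 tested members were higher and 13 lower (median −0.34), and Hmgcs1, an early enzyme of the synthesis, rose by 0.83. The exporter Abcg1, a target of LXR, rose by 1.36, and Abca1 was not called (−0.02).

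Interferon-stimulated genes were higher in beige, where macrophage markers were lower. Of 50 tested, 39 were higher and 4 lower (median 1.09). Rsad2, the antiviral enzyme viperin, went from 0.313 and 0.785 FPKM without rosiglitazone to 18.8 and 24.7 FPKM with it (log2 difference 3.88, SE 0.19, adjusted p = 7.41e-07). Isg15, a ubiquitin-like protein, read 51.8 and 76.02 FPKM in beige libraries and 7.92 and 11.7 FPKM in white libraries (difference 2.58), and Ifit1 and Ifit3, which bind viral RNA, rose by 2.68 and 2.82. The transcription factor gene Irf7 rose by 2.19. The receptor genes Ifnar1 and Ifnar2 were lower (−0.36 and −0.50), a call that Ifnar1 lost without WT beige or WT white replicate 2, and so was Ifi27l2a, from 173 and 225 FPKM to 92.4 and 87.3 FPKM (−1.13). The MHC class I gene H2-K1 was not called (−0.06), and B2m, the shared light chain, fell by 0.75. Replicate 2 was above replicate 1 for 47 of the 50 in beige and 45 in white. The white order was not particular to these genes. It held for 31 of 36 complex I subunits and 58 of 74 cytosolic ribosomal proteins, though for 3 of 19 macrophage markers. In beige the cytosolic ribosomal proteins split 37 to 37. The share over all entries was not counted. The smaller beige value exceeded the larger white value for 41 of the interferon-stimulated genes.

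For 4 of these genes, all called higher in beige and all with a match to the motif marked below, the upstream bases are shown. They are the 250 bases before the annotated start, from RefSeq (build GRCm38.p6), read 5′ to 3′ along the gene, with capitals where GAAA, any pair of bases and GAAA follow each other on either strand, the core of the interferon-stimulated response element. The stretches lie at chr4:156200819-156201068 on the minus strand for Isg15, chr19:34640639-34640888 on the plus strand for Ifit1, chr19:34583279-34583528 on the plus strand for Ifit3 and chr12:26456453-26456702 on the minus strand for Rsad2.
Isg15: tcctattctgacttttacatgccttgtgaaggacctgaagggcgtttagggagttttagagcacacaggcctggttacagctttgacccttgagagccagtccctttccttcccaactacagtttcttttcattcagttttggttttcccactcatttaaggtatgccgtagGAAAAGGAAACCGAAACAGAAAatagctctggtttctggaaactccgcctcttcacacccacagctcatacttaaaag
Ifit1: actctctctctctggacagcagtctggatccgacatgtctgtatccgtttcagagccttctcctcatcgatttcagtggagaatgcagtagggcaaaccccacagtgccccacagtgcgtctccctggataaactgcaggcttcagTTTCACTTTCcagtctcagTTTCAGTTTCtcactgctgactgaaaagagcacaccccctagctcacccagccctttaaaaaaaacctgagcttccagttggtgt
Ifit3: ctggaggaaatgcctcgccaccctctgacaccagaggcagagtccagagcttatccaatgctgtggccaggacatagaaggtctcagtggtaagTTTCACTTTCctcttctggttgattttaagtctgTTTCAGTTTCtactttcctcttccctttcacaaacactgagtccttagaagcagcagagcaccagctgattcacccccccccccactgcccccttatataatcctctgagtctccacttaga
Rsad2: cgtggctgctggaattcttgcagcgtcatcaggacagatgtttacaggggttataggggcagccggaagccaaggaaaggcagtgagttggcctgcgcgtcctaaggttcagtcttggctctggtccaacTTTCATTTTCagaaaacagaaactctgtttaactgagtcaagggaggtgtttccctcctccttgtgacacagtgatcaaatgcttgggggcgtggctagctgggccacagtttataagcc
In Isg15 the 3 matches overlap. Of the 38 list members with a window, 14 (36.8%) held at least 1 match, against 264 of 8255 tested genes (3.20%) and 978 of 32851 windows in all (2.98%). The list is one of interferon-stimulated genes, so this share describes its choice and not the difference between cultures. Of the macrophage markers, whose tested members were all lower in beige, 3 of 15 with a window held a match. So did 84 of 1860 genes called higher (4.52%) and 80 of 2591 called lower (3.09%). Matches were thus found upstream of genes that moved in either direction. For comparison, AGGNCA, any base and AGGNCA again, the spaced repeat bound by PPAR and RXR, searched on both strands, were in 0 of 25 windows of the PPAR targets and in 0.338% of all windows. A match describes the letters alone, and its absence says nothing of a factor, since binding sites of PPARγ often lie far from the start.

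Genes of the extracellular matrix were mostly lower in beige. Of the collagen chains, 0 of 23 tested members were higher and 21 lower (median −0.95). They took 3.47% and 3.95% of the FPKM outside small RNA genes in the white libraries and 0.895% and 0.919% in the beige ones. Col3a1, of loose fibrils, read 209.7 and 236 FPKM with rosiglitazone and 1443 and 1927 FPKM without it (log2 difference −2.90, SE 0.24, adjusted p = 1.13e-05), and Col1a1 366 and 358 FPKM and 1520 and 1998 FPKM (difference −2.27). Col4a1, a chain of basement membranes, was lower (−0.52), and Col15a1, found beside them, was not called (−0.17). The laminin chains of these membranes divided: Lama4 rose from 55.5 and 54.4 FPKM to 118 and 126 FPKM (difference 1.13) and Lamb1 by 0.43, a call lost under quantile normalization and without WT beige replicate 2, Lama2 fell by 1.57, and Lamc1 was not called (0.08). Nid2, a linker of the membrane, fell from 65.9 and 69.4 FPKM to 4.001 and 3.17 FPKM (−3.91), and Eln, the elastin gene, from 16.3 and 14.8 FPKM to 0.686 and 0.855 FPKM (−3.22). Of the other matrix genes, 5 of 53 tested members were higher and 45 lower (median −1.19).

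**Figure D4:**
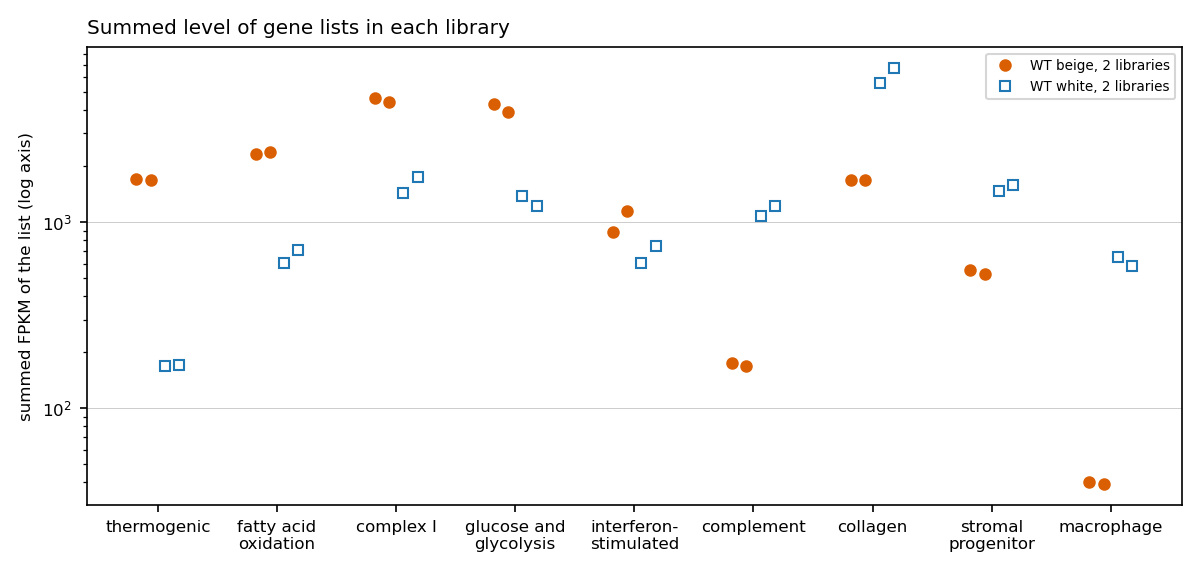
Summed FPKM of the members of 9 gene lists in each library, on a log axis, with WT beige in filled orange circles and WT white in open blue squares. The thermogenic, oxidation, complex I and glucose lists are higher in both beige libraries; complement, collagen, stromal and macrophage lists are higher in both white libraries, with macrophage markers at 40.2 and 39.2 FPKM in the beige libraries, compared with 652 and 580.0 FPKM in the white.

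Genes of signals between cells were mostly lower. Of the Wnt genes, 0 of 24 tested members were higher and 21 lower (median −0.87), led by the secreted Wnt antagonists Sfrp2, from 185 and 219 FPKM in the white libraries to 12.98 and 10.1 FPKM in the beige (log2 difference −4.02, SE 0.14, adjusted p = 1.7e-07), and Sfrp1, from 181 and 170.4 FPKM to 17.3 and 12.04 FPKM (−3.51). All tested insulin-like growth factor binding protein genes fell, from Igfbp7 (−1.41) to Igfbp5 (−2.16), and Igf1 fell by 1.18. Of the growth factor genes, 4 of 25 tested members were higher and 18 lower (median −1.10). Of the TGF-β and BMP genes, 7 of 34 tested members were higher and 20 lower (median −0.40). Tgfbr2, the signalling receptor, fell from 57.6 and 57.2 FPKM to 10.6 and 10.8 FPKM (difference −2.32). The BMP antagonist Grem1 was listed at 0 in both white libraries and read 7.88 and 6.74 FPKM in beige. Stromal markers, 552 and 526 FPKM in beige libraries and 1481 and 1583 FPKM in white libraries, moved with these lists and with the matrix genes.

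Chemokine, cytoskeletal and cell cycle genes were mostly lower as well. Of the chemokines and cytokines, 1 of 17 tested members was higher and 13 lower (median −1.58). Ccl8, a monocyte attractant, fell from 31.8 and 35.2 FPKM to 1.94 and 2.58 FPKM (−3.41), and Cxcl12, a chemokine of the stroma, from 261 and 234 FPKM to 52.97 and 42.7 FPKM (−2.35). The member that rose was Cxcl10, an interferon-induced chemokine, from 2.11 and 2.34 FPKM to 8.51 and 11.2 FPKM (difference 1.74). The macrophage marker Lyz2, lysozyme, fell from 268 and 287 FPKM to 9.47 and 7.59 FPKM (−4.87). Of the cytoskeletal genes, 2 of 21 tested members were higher and 16 lower (median −0.81), with Tuba1a at −2.18. Actb, often used as a reference, read 485 and 489.5 FPKM with rosiglitazone and 907 and 834 FPKM without it (log2 difference −0.83, SE 0.12, adjusted p = 0.000304), and Tbp, another reference, was not called (−0.08). Of the cell cycle genes, 2 of 27 tested members were higher and 20 lower (median −0.63), at low levels in both cultures: Mki67, a marker of division, read 0.246 and 0.159 FPKM in the beige libraries, compared with 1.55 and 1.31 FPKM in the white. Ccnd1, cyclin D1, fell from 11.9 and 9.80 FPKM to 1.77 and 1.54 FPKM (−2.15). With a filter of at least 5 FPKM, 8 of the cell cycle genes were lower.

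With small RNA genes, predicted genes and Riken clones left out, a few genes were listed at 0 in both libraries of 1 culture and at 5 FPKM or more in both of the other, 8 in the direction of beige and 7 in that of white. An exact 0 can be a failed estimate, so no fold is given. Besides Ucp1, Grem1 and the elongin gene Tceb2, they included Sirt3, a mitochondrial deacetylase, at 10.99 and 9.64 FPKM in beige, and Txnrd2, the mitochondrial thioredoxin reductase, at 8.10 and 6.44 FPKM. Ucp1 and Grem1 overlap no other entry. Sirt3 and Tceb2 overlap the entries Ric8 and Srrm2. In the other direction, Nop56, Wdr77 and Rnf146 were listed at 0 in beige and read 6.42 and 6.81 FPKM, 5.82 and 6.62 FPKM and 8.62 and 12.9 FPKM in white. These 3 overlap Idh3b, Atp5f1 and Echdc1, which were themselves higher in beige: Idh3b, a TCA cycle subunit, read 163 and 162 FPKM against 39.7 and 48.4 FPKM, and Echdc1 157.6 and 155.9 FPKM against 53.6 and 59.2 FPKM. The overlapping entries were chosen after the values were seen, and the part of shared reads was not tested.

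The same comparison in KO-labelled cultures set other libraries against each other, within the same fit, so it shares the estimate of spread and the filter on WT levels. It called 27.3% of entries higher and 33.4% lower in beige. Of the WT calls, 86.2% were also called there in the same direction, and of the KO-labelled calls 76.9% were called in WT. Thermogenic genes had a median of 3.35 in KO-labelled and 2.56 in WT cultures, targets of PPAR receptors 1.71 and 1.63, complex I 1.62 and 1.41, glucose genes 1.39 and 1.64, and macrophage markers −3.33 and −2.82. Other lists lay further apart or changed sign: hypoxia response genes had 1.05 in KO-labelled and 1.88 in WT cultures. The list of fatty acid synthesis and its regulators had −0.33 and 0.12. These lists were not tested for a difference between genotypes. The difference was tested gene by gene: limma called 27 of 10845 entries (0.249%), with 1822 at an unadjusted p under 0.05. Txnip, a brake on glucose uptake, rose in WT (90.7 and 83.2 FPKM in beige libraries and 39.6 and 41.2 FPKM in white libraries, 1.09) and was lower in KO-labelled beige cultures (92.3 and 94.5 FPKM against 109.5 and 115 FPKM, −0.26), and the test of the difference gave −1.35 (adjusted p = 0.00354). Acly, the citrate lyase that supplies fat synthesis, was lower in beige in WT (−0.70) and KO-labelled cultures (−1.98) (difference of differences −1.28, adjusted p = 0.0339). Cox8b rose by 2.53 in WT and 3.58 in KO-labelled cultures (difference of differences 1.05, adjusted p = 0.0441). Ucp1 read 51.6 and 24.5 FPKM in the KO-labelled beige libraries and was listed at 0 in the KO-labelled white ones, and the test of its difference did not pass (adjusted p = 0.262).

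**Figure D5:**
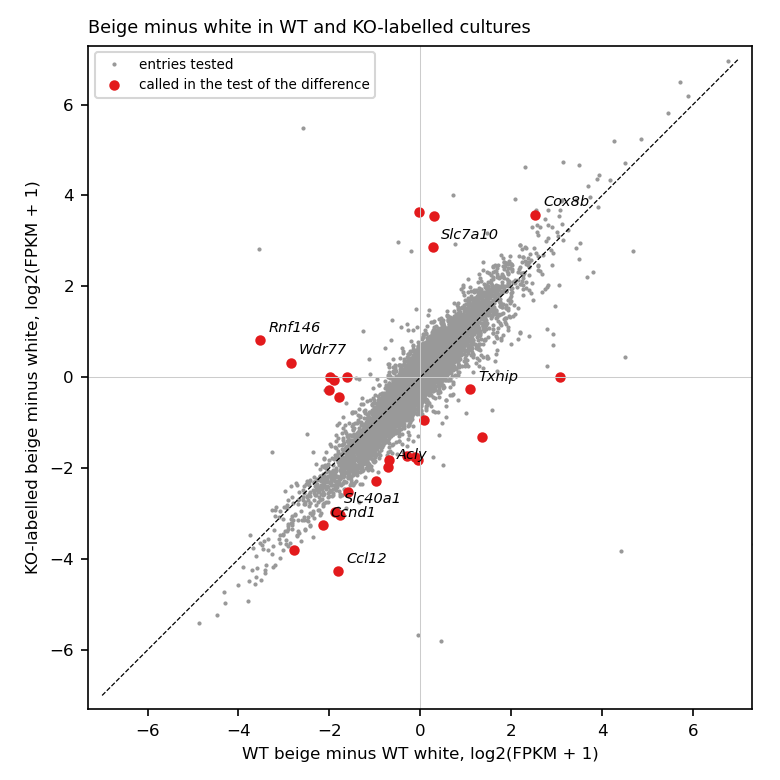
Difference between beige and white cultures in WT (horizontal axis) and KO-labelled (vertical axis) libraries, both on the log2(FPKM + 1) scale, for the 10845 entries tested, with the 27 entries called in the test of the difference in red. Most points lie along the dashed line of equal differences, and Txnip, Acly and Cox8b are among those called off it.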

How the data were processed

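RNA from beige and white cultures was sequenced as single reads of 36 bases, per the labels' protocols. The authors deposited 1 table per library with FPKM for each gene entry. Reads were placed on mm10 (GRCm38), per the submitters' processing notes. Which aligner, quantifier and annotation made them is not given in the sources used here. Samples were grouped by their titles. Values were kept per gene and locus, 24888 entries, of which 830 share a symbol and 25 carry symbols turned into dates.

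FPKM are not counts, so limma 3.58.1 in R 4.3.3 was fitted on log2(FPKM + 1), with a trend in the prior variance, 1 coefficient for each of 4 groups and 4 residual degrees of freedom over 8 libraries. Tests used Benjamini-Hochberg adjustment over the 10845 entries with at least 1 FPKM in 2 WT libraries. On simulated data the fit recovered 34.3%, 83.6% and 97.0% of genes changed by 0.5, 1 and 2 on the log2 scale, with 7 false calls. There, 67, 67 and 66 of 10845 genes were changed, all with a mean log2 value above 2, and the noise was independent between genes. Far more entries, 5881, were called in the data. The recovery and the 7 false calls therefore do not carry over to those calls. Depth is unknown, so no counting interval is given. No value above 0 was identical between replicates.

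Alternatives were a pseudocount of 0.1, no filter, at least 5 FPKM, median centring, quantile normalization, small RNA genes left out, the 4 WT libraries alone, the replicate number as a block, and each WT library left out. The members and gene lists were chosen with earlier results of these data known. Genes were named by a rule: the 20 largest rises and falls, anchor genes and the 4 lowest p-values of each list, the 10 most abundant entries per culture outside small RNA genes, genes listed at 0 in 1 culture, Atf7 and control genes. C5ar1, Col4a1, Col15a1, Cpt1c, Echdc1, Hoxc10, Ifi27l2a, Ifnar2, Lama2, Otop1, Pde3a, Pdk3, Ric8 and Srrm2 fall outside it and were chosen after their values were seen. Some genes that the rule names are not reported here. The 1 list member with no entry was Ly6g.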

Additional observations from a re-analysis of the deposited data

Results flagged for a closer look

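In 9 genes named by the rule, the difference between beige and white cultures itself differed between KO-labelled and WT libraries at an adjusted p under 0.05 in limma. The values below are the KO-labelled difference minus the WT difference on the log2(FPKM + 1) scale. All 8 libraries enter, and each genotype has 2 libraries per culture.

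In 5 of them both genotypes moved in the same direction and KO-labelled cultures moved further. Acly, citrate lyase, gave −1.28 (adjusted p = 0.0339): the white libraries read 171 and 214 FPKM when KO-labelled and 95.4 and 93.5 FPKM when WT. Ccl12, a monocyte chemokine, gave −2.46 (adjusted p = 0.000152), with white libraries at 19.9 and 20.3 FPKM when KO-labelled and 5.54 and 5.75 FPKM when WT. Ccnd1, cyclin D1, gave −1.10 (adjusted p = 0.0339), and Cox8b, an oxidase subunit, gave 1.05 (adjusted p = 0.0441). Slc40a1, the iron exporter, moved from 7.53 and 7.50 FPKM in WT white to 1.57 and 1.12 FPKM in WT beige and from 15.3 and 14.2 FPKM to 1.09 and 0.945 FPKM in KO-labelled cultures, a difference of −1.10 (adjusted p = 0.0399).

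Txnip gave −1.35 (adjusted p = 0.00354), and its difference had opposite signs in the 2 genotypes. Slc7a10, an amino acid transporter used as a marker of white fat, gave 2.60 (adjusted p = 0.000335); it read 8.19 and 6.11 FPKM in WT white libraries and was listed at 0 in both KO-labelled white ones. Rnf146 and Wdr77 gave 4.34 (adjusted p = 7.75e-05) and 3.17 (adjusted p = 4.48e-05). Both were listed at 0 in the WT beige libraries, while the KO-labelled beige libraries read 16.5 and 12.95 FPKM for Rnf146 and 6.16 and 7.35 FPKM for Wdr77. For these last 3 genes the size rests on libraries listed at 0 and on the pseudocount.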

How the results depend on the processing

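The median over all entries, −0.09 as reported, was −0.106 with a pseudocount of 0.1, −0.045 with no filter, −0.01 with at least 5 FPKM, 0.019 after median centring, 0.017 under quantile normalization, −0.226 with small RNA genes left out and from −0.108 to −0.079 with 1 WT library left out. With at least 5 FPKM, where fewer entries are tested, 3757 were called and 1887 were lower. With 1 WT library left out, 4600 to 5263 were called, 1860 to 2197 higher and 2716 to 3170 lower; the group left with 1 library was taken to vary like the others. The test between genotypes called 27 as reported, 16 with a pseudocount of 0.1 and from 15, without WT beige replicate 1, to 34 with 1 library left out. With no filter, medians nearer 0 were found for chemokines (−0.72), collagens (−0.60), Wnt (−0.54) and TGF-β and BMP genes (−0.24), mitochondrial carriers (0.33), white-selective markers (−0.17) and regulators of thermogenesis (0.11). Median centring moved the share of calls that were higher from 41.0% to 52.0%, and leaving out small RNA genes moved it to 28.3%. Of 224 tested genes named in the text, 206 were tested in each of the 12 alternatives, and 192 of these kept their side of the threshold throughout. Those of the 192 that were called also kept their direction. A gene with no call could change sign and still be counted. Pcx turned to −0.40 under quantile normalization, and the cause was not tested. Deviations of same-numbered libraries correlated at −0.0201 between WT beige and WT white. They correlated at 0.277 between WT beige and KO-labelled beige and at 0.265 between WT white and KO-labelled white. The remaining pairs of groups gave −0.177 to 0.0877. Replicate numbers were not taken as pairs in the main fit. With the replicate number as a block, 5916 were called, 2430 higher and 3486 lower, and 30 between genotypes. The unknown depth limits what can be said of genes near 0, and the 2 libraries per group limit the smaller differences.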

Other observations

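Some of the largest rises, and some abundant entries, belong to none of the pathways above. Acer2, a ceramidase that frees sphingosine, read 24.5 and 22.4 FPKM in the beige libraries, compared with 0.822 and 0.476 FPKM in the white (log2 difference 3.90, SE 0.15, adjusted p = 3.02e-07). Itgad, an integrin α chain best known from leukocytes, read 11.2 and 10.2 FPKM in beige libraries and 0.0483 and 0.124 FPKM in white libraries (difference 3.43), in the opposite direction to the macrophage markers. Bsg, basigin, a chaperone of the lactate carriers, stood among the 10 most abundant entries outside small RNA genes in beige, at 1109 and 1009 FPKM against 275 and 257 FPKM (difference 1.99).

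Among the largest falls were proteins that bind collagen. Lum, lumican, fell from 29.4 and 37.03 FPKM in the white libraries to 1.71 and 1.64 FPKM in the beige (log2 difference −3.67, SE 0.12, adjusted p = 1.7e-07), and Ogn, osteoglycin, from 76.9 and 88.3 FPKM to 7.05 and 6.03 FPKM (difference −3.47). Gas6, a ligand of the TAM receptors, fell from 299 and 317 FPKM to 25.7 and 19.98 FPKM (difference −3.71), and Nov, a matricellular CCN protein, from 60.9 and 59.5 FPKM to 4.95 and 4.01 FPKM (difference −3.49). F13a1 and Stab1, the clotting factor XIII A chain and a scavenger receptor, both often made by tissue macrophages, were lower (−4.32 and −4.30).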
